A study of Mus musculus with 8 samples.

Results

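The ephrins, Eph receptors, semaphorins, plexins and neuropilins are cell surface and secreted proteins by which a cell reads its neighbours. They were followed here in hepatocytes, the main parenchymal cell of the liver, under shear stress, the drag of moving fluid on a cell surface, and under static conditions. Members were all genes whose symbol names an ephrin (Efna, Efnb), an Eph receptor (Epha, Ephb), a semaphorin (Sema), a plexin (Plxn) or neuropilin 1 or 2, which gave 50 of the 17276 genes in the files. The shear stress group (4 libraries) and the static group (4 libraries) both came from wild-type (WT) male C57BL/6N mice aged 6 to 8 weeks. The labels do not give the size or duration of the stress, the substrate, or whether replicates stand for separate animals or cultures. The p-values therefore speak only of the spread among these 8 libraries, part or all of which may be technical.

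Eph receptors are receptor tyrosine kinases that are activated by ephrins on a touching cell, and the ephrin can signal back into its own cell. Ephrin-A ligands hang on a lipid anchor and ephrin-B ligands cross the membrane. Semaphorins bind plexins, which act on the actin cytoskeleton. Secreted class 3 semaphorins mostly need a neuropilin as coreceptor, while semaphorins of the other vertebrate classes are tied to the membrane and mostly bind plexins directly. All of these families were first known from axon guidance and also act in epithelia and blood vessels.

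Depth was between 16225843 and 16732203 estimated counts per library under shear stress and between 15067056 and 17935566 in static culture, and 3 counts correspond to between 0.157 and 0.227 CPM. Below, CPM are counts scaled to a common library size with trimmed mean (TMM) factors and serve to compare groups, and TPM, the deposited values per transcript length, serve to compare genes. A change is the log2 fold change of shear stress over static ± standard error (SE), with a Benjamini-Hochberg adjusted p from the quasi-likelihood test of edgeR over all 11747 genes tested, and a gene is called at an adjusted p under 0.05. Libraries of both groups with the same replicate number varied together, so values with that number as a block are given where they alter a call. Markers showed mostly hepatocytes. Sums over 8 hepatocyte genes, mostly from Alb, were 39435 to 55214.4 TPM under shear stress and 51856.3 to 64628 TPM in static libraries. By the test, 7 of the 8 were lower under shear stress, as were 23.7% of all tested genes. The 10 endothelial genes summed to between 3.93 and 11.8 TPM under shear stress and between 4.57 and 11 TPM in static libraries, and 8 genes of stellate cells or fibroblasts to between 2.25 and 3.81 TPM under shear stress and between 1.93 and 6.34 TPM in static libraries. For 7 macrophage genes the sums were 25.1 to 78.4 TPM under shear stress and 27 to 68.2 TPM in static libraries, nearly all from Cd68, while Adgre1, Clec4f and Csf1r had at most 5 counts in any library. For 4 cholangiocyte genes they were 247 to 1952.2 TPM under shear stress and 91.5 to 1310.7 TPM in static libraries, mostly from Spp1, with Krt19 under 1 TPM. Of these 11 macrophage and cholangiocyte genes 4 were tested and none was called (Epcam alone had an unadjusted p under 0.05 by edgeR, 0.0425), while 4 lymphocyte genes summed to between 0.14 and 1.25 TPM under shear stress and between 11.4 and 15.6 TPM in static libraries, with Cd79a and Cd79b lower. The part of other cells in the changes below was not tested.

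Of the 50 members, 25 had enough counts to be tested, and the other 25 were at or near the detection limit. Tested without the replicate block, 5 of the 25 rose under shear stress (Efnb1, Plxna1, Sema4b, Sema6a and Sema7a). Another 2 fell (Epha2 and Efnb2) and 18 were not called. The calls made up 28% of the tested members, whereas 48.6% of all tested genes were called (24.9% higher and 23.7% lower). With library totals in place of TMM factors 8 members were higher and 2 lower, against 35.4% of all tested genes higher and 13.1% lower. The median change was 0.25 for the 25 tested members and -0.01 for all tested genes. It was 0.12 for tested members without shear stress replicate 1 and 0.13 without static replicate 4, and without a filter on low counts it was -0.03 for all 50 members and -0.06 for all genes. With the replicate number as a block, 10 members were higher and 4 lower, so part of the 18 not called without it were called. Of all tested genes, 61.1% were called with it (30.1% higher and 31% lower). A change of at least 2-fold was called for 5 members, against 17.3% of all tested genes.

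**Figure D1:**
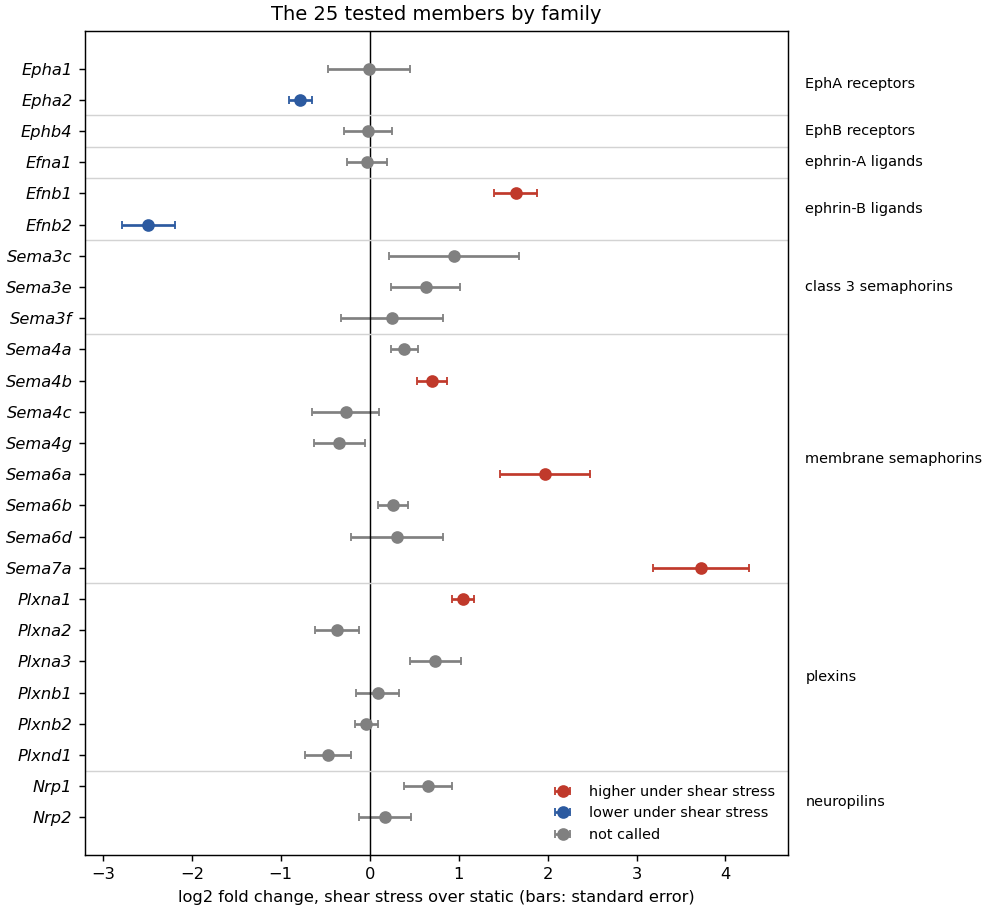
Log2 fold change of shear stress over static for the 25 tested members, grouped by family, with bars of 1 standard error from the edgeR fit (4 libraries per group). The 5 called rises are red, the 2 called falls are blue, and the 18 members not called are grey, with Sema7a at 3.73 and Efnb2 at -2.49 as the extremes.

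Promoters are shown for 4 of the called members, 2 that rose (Efnb1, Sema7a) and 2 that fell (Epha2, Efnb2). They were chosen because they include the opposite changes of the ephrin-B genes, the most abundant Eph receptor and the tested member with the largest change. Each runs from 250 bases before to 50 after a transcription start, 5′ to 3′ on the gene's strand, from RefSeq on GRCm38.p6, in which 44 of the 50 members had a promoter. The stretches are chrX:99135811-99136110 (plus strand) for Efnb1, chr9:57939862-57940161 (plus) for Sema7a, chr4:141300971-141301270 (plus) for Epha2 and chr8:8661193-8661492 (minus) for Efnb2. The Sema7a stretch begins after the start of the gene at 57939596, so its transcription start is not the most upstream one. Capitals mark matches to the motifs named in the next paragraph or, where there was none, the first base transcribed from the start used.
Efnb1: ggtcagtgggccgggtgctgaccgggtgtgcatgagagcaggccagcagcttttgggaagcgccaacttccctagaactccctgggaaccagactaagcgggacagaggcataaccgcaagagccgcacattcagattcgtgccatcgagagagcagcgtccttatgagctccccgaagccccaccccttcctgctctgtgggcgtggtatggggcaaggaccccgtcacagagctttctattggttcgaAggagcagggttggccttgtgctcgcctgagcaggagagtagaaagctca
Sema7a: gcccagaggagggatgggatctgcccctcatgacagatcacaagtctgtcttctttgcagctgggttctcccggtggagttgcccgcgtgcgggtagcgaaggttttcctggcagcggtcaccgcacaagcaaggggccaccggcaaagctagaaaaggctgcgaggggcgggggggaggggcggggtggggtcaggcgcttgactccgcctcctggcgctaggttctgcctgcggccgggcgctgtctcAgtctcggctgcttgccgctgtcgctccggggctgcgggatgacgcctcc
Epha2: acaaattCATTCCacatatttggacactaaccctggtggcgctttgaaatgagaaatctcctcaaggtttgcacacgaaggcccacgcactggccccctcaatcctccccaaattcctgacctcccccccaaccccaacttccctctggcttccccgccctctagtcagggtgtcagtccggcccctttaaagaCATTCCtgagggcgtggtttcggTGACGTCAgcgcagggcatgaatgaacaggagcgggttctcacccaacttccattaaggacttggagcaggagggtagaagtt
Efnb2: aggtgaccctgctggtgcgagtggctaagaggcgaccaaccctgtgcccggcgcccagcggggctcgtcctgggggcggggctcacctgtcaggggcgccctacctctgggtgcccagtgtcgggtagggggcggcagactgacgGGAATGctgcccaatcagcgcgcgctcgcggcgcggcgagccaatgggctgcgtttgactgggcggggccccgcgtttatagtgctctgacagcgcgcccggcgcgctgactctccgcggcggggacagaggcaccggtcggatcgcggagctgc

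Searched on both strands were the AP-1 site TGANTCA, the cyclic AMP response element TGACGTCA (which cannot match the same letters), the TEAD site GGAATG, the SMAD palindrome GTCTAGAC and the CArG box of serum response factor. The Epha2 promoter held the cyclic AMP response element 33 bases before the start, a match found in 1.79% of the 32851 promoters in the table. It also held the TEAD letters on the reverse strand, 243 and 56 bases before the start, and the Efnb2 promoter held them 105 bases before the start. These letters occur in 14.7% of all promoters and in 7 of 61 promoters of the gene families (some genes have several). Neither of the 2 promoters shown for members that rose (Efnb1 and Sema7a) held any of the 5 motifs. The promoters of Sema4b, which also rose, held none either, and no promoter of Plxna1 or Sema6a is shown. The AP-1 site (7.81% of all promoters) and the CArG box (1.63%) were in none of the 4 sequences. A match is a description of letters and says nothing on whether a factor binds.

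**Figure D2:**
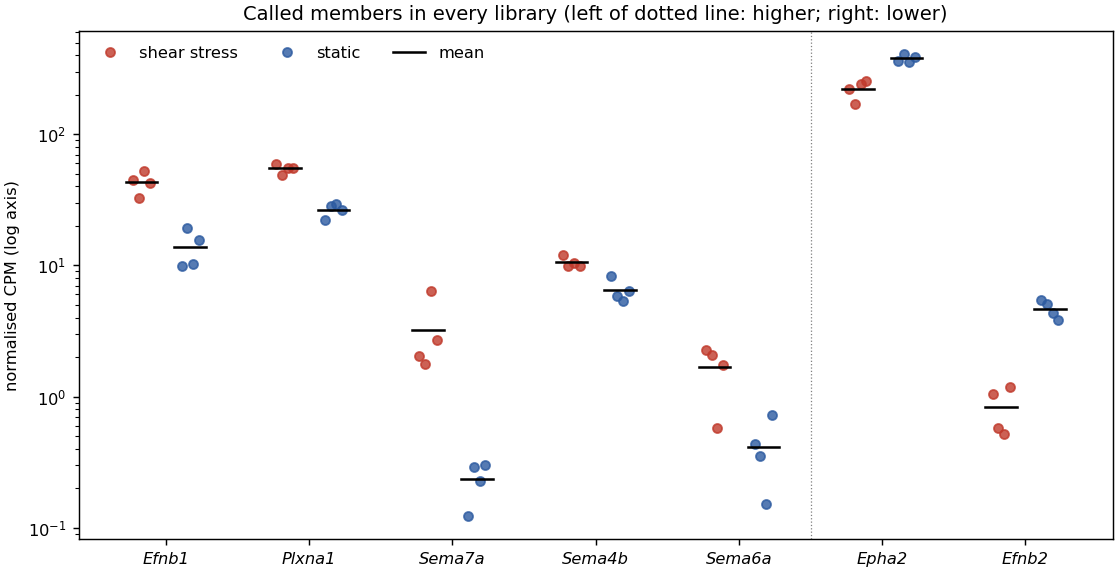
Normalised CPM (log axis) of the 7 called members in each of 4 shear stress (red) and 4 static (blue) libraries, with black lines at the means. The groups are apart for all but Sema6a, in which the shear stress library of replicate 3 lies at 0.577 CPM, under the static library of replicate 4 at 0.72 CPM.

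The ephrin-B ligands gave the sharpest contrast, with Efnb1 higher and Efnb2 lower. Efnb1 (Gene ID 13641; chromosome X, 99136061 to 99149022) encodes ephrin-B1, a transmembrane ligand that binds EphB receptors. Its level was 45.0, 32.6, 52.3 and 42.7 CPM in the shear stress libraries of replicates 1 to 4, and 9.98, 19.4, 10.2 and 15.7 CPM in the static libraries. Every shear stress library lay above every static one, as held for the libraries of 45.3% of all tested genes in either direction. Efnb1 rose 3.11-fold (1.64 ± 0.24, adjusted p = 0.000583 by edgeR). Efnb2 (Gene ID 13642; chromosome 8, 8617235 to 8661242) encodes ephrin-B2, the main partner of EphB4 and a gene of arterial endothelium. Its level was 1.04, 0.574, 0.519 and 1.19 CPM under shear stress and 5.42, 5.12, 4.32 and 3.84 CPM in static libraries, again without overlap. Efnb2 fell by 2.49 ± 0.30 on the log2 scale (adjusted p = 0.000241 by edgeR).

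Per transcript length, the ratio of Efnb1 to Efnb2 was 63.5, 91.3, 147 and 54.8 under shear stress and 2.9, 6.22, 3.59 and 6.3 in static libraries. Efnb1 accounted for 98.2% of the mean ephrin-B TPM under shear stress and for 79.3% in static libraries. The summed level of the family was 20.4 ± 3.41 TPM under shear stress and 7.04 ± 2.36 TPM in static libraries (SD, n = 4 each). Efnb3, the third ephrin-B gene, had 17 counts in all shear stress and 41 in all static libraries and was not tested. In bulk samples fewer cells of a type and less RNA per cell cannot be told apart. Of the 10 endothelial markers, 7 were tested and 1, Pecam1, was called (-2.42, at 0.88 TPM under shear stress and 4.10 TPM in static libraries), while Cdh5, Kdr, Stab2, Lyve1, Ptprb and Eng were not called and none of the 10 was at 0 throughout. Efnb2 begins 3.83 kb after the end of Arglu1 on the same strand, which had 1853 counts in all shear stress and 1537 in all static libraries (change 0.10 ± 0.11). The part of endothelial RNA or of reads from beyond Arglu1 in the Efnb2 change was not tested.

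Among Eph receptors a single gene, Epha2, made up nearly all of the RNA, and it fell. Epha2 (Gene ID 13836; chromosome 4, 141301221 to 141329384) encodes a receptor of epithelial cells that binds ephrin-A ligands. It had 220, 170, 242 and 255 CPM under shear stress and 365, 407, 358 and 391 CPM in static libraries, and the groups did not overlap. Its change was -0.78 ± 0.13 (adjusted p = 0.00108 by edgeR). Epha2 held 98.2% of the mean EphA TPM under shear stress and 98.8% in static libraries, and the family summed to 90.9 ± 12.6 TPM under shear stress and 135 ± 14.8 TPM in static libraries (SD, n = 4 each).

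The other tested receptors were not called. Epha1 was at 3.28 ± 1.15 CPM under shear stress and 3.35 ± 2.39 CPM in static libraries (-0.01 ± 0.46, adjusted p = 0.986 by edgeR). Its exons overlap those of Zyx on the opposite strand, which rose (0.80 ± 0.16), and without a stated strand the reads of both cannot be told apart. Ephb4, the receptor of ephrin-B2 in veins, was at 9.73 ± 2.19 CPM under shear stress and 9.92 ± 3.92 CPM in static libraries (-0.02 ± 0.27, adjusted p = 0.953 by edgeR). It took 92.4% of the mean EphB TPM under shear stress (3.48 TPM) and 94.8% in static libraries (2.99 TPM), and its exons overlap those of Zan on the opposite strand.

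Efna1, which encodes ephrin-A1, a ligand of EphA2, was the one ephrin-A gene with enough counts. Its level was 102, 82.3, 53.2 and 47.6 CPM under shear stress and 64.5, 73.0, 82.2 and 72.1 CPM in static libraries. The shear stress libraries of replicates 1 and 2 lay at the top of or above the static range and those of replicates 3 and 4 lay below it, so that the mean differed little (-0.03 ± 0.23, adjusted p = 0.911 by edgeR). Per length, Efna1 stood at 84.8 ± 29.3 TPM under shear stress, and Epha2 stood at 89.2 ± 12.4 TPM. In static libraries it stood at 74.4 ± 8.63 TPM and Epha2 at 133 ± 15.4 TPM (SD, n = 4 each). The ratio of Epha2 to Efna1 in TPM was 0.728, 0.707, 1.54 and 1.82 under shear stress and 1.96, 1.91, 1.49 and 1.86 in static libraries, which overlap.

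**Figure D3:**
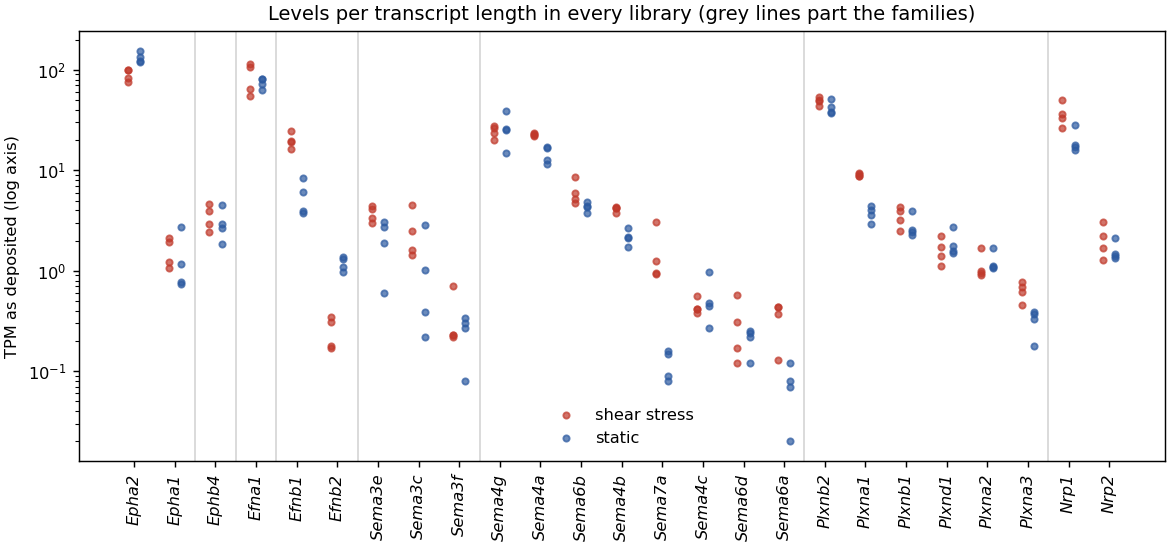
Deposited TPM (log axis) of the 25 tested members in each of 4 shear stress (red) and 4 static (blue) libraries, ordered by family and level. In most families 1 gene stands well above the rest: Epha2 between 74.92 and 154.99 TPM, Plxnb2 between 37.62 and 53.17 TPM and Nrp1 between 16.07 and 50.64 TPM.

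Of the 8 tested membrane-bound semaphorins, 3 rose and none fell, or 37.5% called against 48.6% of all tested genes. Sema7a showed the largest change of any tested member. Sema7a (Gene ID 20361; chromosome 9, 57939596 to 57962865) encodes a lipid-anchored semaphorin that binds plexin C1 and integrins with the beta 1 chain. It had 35, 34, 111 and 48 counts under shear stress and 2, 5, 3 and 5 counts in static libraries, which correspond to 2.03, 1.77, 6.41 and 2.72 CPM under shear stress and to 0.123, 0.291, 0.227 and 0.30 CPM in static libraries. It was close to the detection limit in every static library and above it in every shear stress library, and it rose by 3.73 ± 0.54 (adjusted p = 0.000566 by edgeR). It passed the filter on low counts only through the shear stress libraries, and its rank holds only among members that passed. Without shear stress replicate 3, Sema7a rose by 3.16 (adjusted p = 0.000523 by edgeR). Its plexin receptor, Plxnc1, had 11 counts in all shear stress libraries and 7 in all static libraries. The integrin gene Itgb1 was at 556 ± 62.4 CPM under shear stress and 515 ± 65.5 CPM in static libraries (0.11, adjusted p = 0.469 by edgeR).

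Sema4b, a class 4 semaphorin (Gene ID 20352; chromosome 7, 80186870 to 80226646), had 11.9, 9.97, 10.4 and 9.85 CPM under shear stress and 8.26, 5.88, 5.31 and 6.36 CPM in static libraries. The groups did not overlap, and Sema4b rose 1.63-fold (0.70 ± 0.17, adjusted p = 0.007 by edgeR). Sema6a, a transmembrane semaphorin that binds plexins A2 and A4 (Gene ID 20358; chromosome 18, 47245254 to 47371200), had 2.26, 2.09, 0.577 and 1.75 CPM under shear stress and 0.431, 0.349, 0.152 and 0.72 CPM in static libraries. It rose 3.92-fold (1.97 ± 0.51, adjusted p = 0.0107 by edgeR), higher in 4 of 4 pairs of the same number although the groups overlapped. The share of all tested genes with 4 of 4 pairs in 1 direction is not given here or below. It includes by definition the 45.3% whose groups did not overlap. Of the plexins of Sema6a, Plxna2 is described below and Plxna4 had 26 counts in all shear stress and 5 in all static libraries.

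The most abundant semaphorins changed less. Sema4g, at 24.5 ± 3.61 TPM under shear stress and 26.3 ± 10 TPM in static libraries, was not called (-0.34 ± 0.29, adjusted p = 0.35 by edgeR), and begins 5.8 kb after Slf2 on the same strand. Sema4a, a class 4 semaphorin that also acts in immune cells, had 49.8, 45.3, 48.8 and 49.6 CPM under shear stress and 43.4, 27.3, 32.7 and 43.9 CPM in static libraries. Its groups did not overlap, yet its change of 0.39 ± 0.15 missed the threshold (adjusted p = 0.0558 by edgeR, and 0.00936 with the replicate block). Without static replicate 1 or 4 it was called (adjusted p = 0.0376 and 0.0323 by edgeR). Sema6b was at 15.1 ± 3.58 CPM under shear stress and 12.6 ± 0.807 CPM in static libraries (0.26 ± 0.17), Sema4c at 1.31 ± 0.228 CPM under shear stress and 1.60 ± 0.869 CPM in static libraries (-0.27 ± 0.38) and Sema6d, a ligand of plexin A1, at 1.24 ± 0.951 CPM under shear stress and 0.998 ± 0.323 CPM in static libraries (0.31 ± 0.52), none of them called.

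With all 8 libraries, none of the 3 tested class 3 semaphorins was called without the block, and 2 of them were higher with it. Of all tested genes, 48.6% were called without the block and 30.1% were higher with it. Sema3e, which binds plexin D1 without a neuropilin, had 16.6, 17.3, 13.6 and 21.2 CPM under shear stress and 10.7, 13.3, 3.34 and 16.7 CPM in static libraries. It was higher in 4 of 4 pairs (0.63 ± 0.39, adjusted p = 0.204 by edgeR, and 0.76 with adjusted p = 0.0284 with the block). Sema3c, a ligand of neuropilins, had 4.92, 4.85, 8.02 and 15.4 CPM under shear stress and 0.863, 3.55, 1.52 and 11.1 CPM in static libraries. Replicate 4 was the highest in both groups, and Sema3c too was higher in 4 of 4 pairs (0.95 ± 0.73, adjusted p = 0.309 by edgeR, and 1.24 with adjusted p = 0.0203 with the block). Without static replicate 4 its change was 2.05 (adjusted p = 0.0231 by edgeR). Sema3f, a ligand of neuropilin 2, was at 0.781 ± 0.563 CPM under shear stress and 0.652 ± 0.357 CPM in static libraries (0.25 ± 0.57).

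Among plexins, the receptors of semaphorins, Plxna1 rose while the far more abundant Plxnb2 was not called. Plxna1 (Gene ID 18844; chromosome 6, 89316313 to 89362613) encodes a receptor that pairs with neuropilins for class 3 semaphorins and also binds class 6 semaphorins. It had 59.7, 49.1, 55.7 and 55.2 CPM under shear stress and 22.1, 28.5, 29.5 and 26.3 CPM in static libraries, with a wide gap between the groups. It rose 2.07-fold (1.05 ± 0.12, adjusted p = 0.000161 by edgeR). Its exons overlap those of Gm26811 on the opposite strand.

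Plxnb2, a receptor of class 4 semaphorins, was at 213 ± 13.5 CPM under shear stress and 219 ± 39.1 CPM in static libraries (-0.04 ± 0.13, adjusted p = 0.83 by edgeR). It made up 75.4% of the mean plexin TPM under shear stress and 80.9% in static libraries, and the TPM ratio of Plxna1 to Plxnb2 was between 0.172 and 0.213 under shear stress and between 0.0778 and 0.114 in static libraries. Plxnb1, the receptor of Sema4d, was at 19.7 ± 4.96 CPM under shear stress and 18.5 ± 5.79 CPM in static libraries (0.09 ± 0.24) and was not called. Sema4d itself had 15 counts in all shear stress and 33.73 in all static libraries.

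Another 3 plexins were not called with TMM factors and all 8 libraries but were called when the block was added. With the block, 61.1% of all tested genes were called. Plxna3 had 3.47, 2.56, 2.02 and 3 CPM under shear stress and 2.16, 1.51, 0.985 and 1.92 CPM in static libraries, higher in 4 of 4 pairs (0.74 ± 0.29, adjusted p = 0.0594 by edgeR and 0.0136 with the block). It was called without shear stress replicate 3 (adjusted p = 0.0441 by edgeR). Plxna2, which binds Sema6a, was at 8.48 ± 2.71 CPM under shear stress and 11 ± 2.98 CPM in static libraries, lower in 4 of 4 pairs (-0.37 ± 0.25, adjusted p = 0.247 by edgeR and 0.0303 with the block). It was lower at -0.61 without shear stress replicate 3 (adjusted p = 0.0493 by edgeR). Plxnd1, the receptor of Sema3e, was at 7.43 ± 2.13 CPM under shear stress and 10.3 ± 3.35 CPM in static libraries, also lower in 4 of 4 pairs (-0.47 ± 0.26, adjusted p = 0.166 by edgeR and 0.0322 with the block).

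Nrp1, the gene of neuropilin 1, a coreceptor of class 3 semaphorins and of vascular endothelial growth factor, had 211, 120, 100 and 148 CPM under shear stress and 135, 67.4, 80.6 and 83.9 CPM in static libraries. The groups overlapped because replicate 1 was high in both, and Nrp1 was higher in 4 of 4 pairs. Its change was 0.66 ± 0.27 (adjusted p = 0.0701 by edgeR) and 0.65 with the block (adjusted p = 0.000284 by edgeR). It was called without static replicate 1 (0.90, adjusted p = 0.0167 by edgeR) or shear stress replicate 3 (0.80, adjusted p = 0.038 by edgeR). Nrp2 was at 8.67 ± 3.28 CPM under shear stress and 7.72 ± 2.07 CPM in static libraries (0.17 ± 0.29, adjusted p = 0.663 by edgeR). Nrp1 took 94.7% of the mean neuropilin TPM under shear stress and 92.6% in static libraries.

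**Figure D4:**
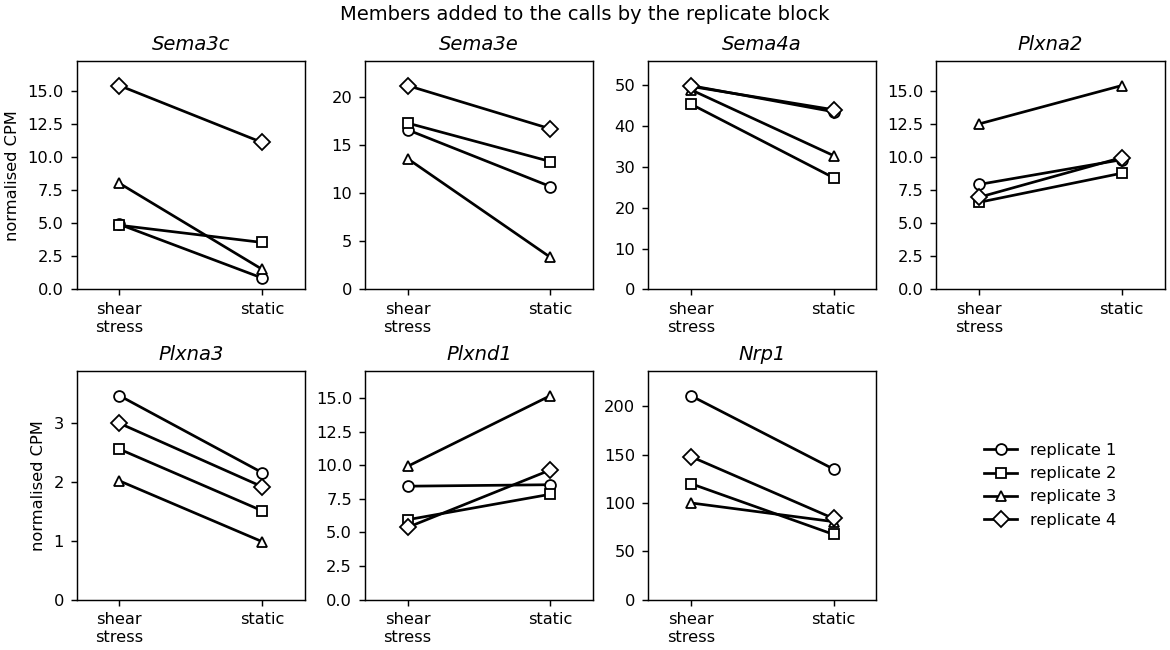
Normalised CPM of the 7 members not called by the test without a block and called with the replicate number as a block, in shear stress (left) and static (right) libraries, with a line joining the libraries of 1 replicate number. The lines of Sema3c, Sema3e, Sema4a, Plxna3 and Nrp1 are higher at the shear stress end in all 4 pairs, and those of Plxna2 and Plxnd1 are lower there. The genes were picked by the block test on these same values, so the agreement of the pairs is no separate support.

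The 25 untested members included 5 of 7 EphA, 3 of 4 EphB, 4 of 5 ephrin-A, 1 of 3 ephrin-B, 4 of 7 class 3 semaphorin, 5 of 13 membrane-bound semaphorin and 3 of 9 plexin genes. Each had between 3 and 68 counts over the 8 libraries together, so differences of moderate size were not detectable at this depth. No member was at 0 in every library, but members are only the genes with deposited values. A gene of these families without such values, such as Epha3, is not counted. When genes were tested without a filter on low counts, 4 of them were lower, Epha8, Epha10, Efna2 and Efna4, beside Epha2 and Efnb2, which makes 6 lower and 5 higher members, against 18.3% lower and 17.2% higher of the 17102 genes tested in that way. Epha10, an Eph receptor without kinase activity, had 0, 0, 1 and 0 counts under shear stress and 10, 3, 5.07 and 3 counts in static libraries. Its change was -4 (adjusted p = 0.00612 by edgeR without the filter). Efna2, an ephrin-A ligand gene, had 6, 0, 1 and 1 counts under shear stress and 16, 15, 9 and 6 counts in static libraries (adjusted p = 0.0142 by edgeR without the filter). The gene Cirbp ends 6.7 kb before Efna2 on the same strand and rose (1.37 ± 0.19). Efna4, also an ephrin-A ligand gene, had 7 counts in all shear stress and 27 in all static libraries, begins 0.51 kb after Adam15, and overlaps 4731419I09Rik on the opposite strand. Epha8 had 0 counts in the shear stress libraries and 10 in the static libraries together (-4.48, adjusted p = 0.0341 by edgeR without the filter). On these few counts, the changes of Epha8 and Epha10 were larger in size than that of Sema7a without the filter (3.72). The part of reads from neighbouring genes in these low counts was not tested. Without static replicate 4, Ephb6, an Eph receptor that lacks kinase activity, entered the test and was higher (1.22, adjusted p = 0.0418 by edgeR).

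The genes that act with these families changed in both directions. Of 102 partner genes in 4 lists, 98 were in the files and 76 were tested, of which 16 rose, 26 fell and 34 were not called, or 55.3% called against 48.6% of all tested genes. With upper quartile factors in place of TMM factors 19 were higher and 20 lower, against 31.1% of all tested genes higher and 16.9% lower. With library totals 23 were higher and 15 lower, against 35.4% of all tested genes higher and 13.1% lower. With the replicate block 18 were higher, with Grip1 and Rras added, and 27 lower, with Dock4 added. Of all tested genes, 30.1% were higher and 31% lower with the block. Of 30 tested partners of Eph receptors and ephrins, 5 rose and 12 fell (median -0.27), or 56.7% called against 48.6% of all tested genes. Without the block, 24.9% of all tested genes were higher and 23.7% lower. Rin1, an effector of Ras that guides uptake of EphA4, was at 33.2 ± 8.55 CPM under shear stress and 3.52 ± 2.94 CPM in static libraries and rose by 3.22 ± 0.50 (adjusted p = 0.00107 by edgeR). The tyrosine kinase gene Src rose to 105 ± 9.75 CPM, against 51.7 ± 12.3 CPM in static libraries (1.02 ± 0.16). Ptpn11, a tyrosine phosphatase gene, was at 182 ± 11.2 CPM under shear stress and 275 ± 5.54 CPM in static libraries (-0.60 ± 0.08), and Crk, an adaptor gene, at 137 ± 11.7 CPM under shear stress and 217 ± 26.9 CPM in static libraries (-0.66 ± 0.11), both called lower.

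Of 28 tested partners of semaphorins and plexins, 7 rose and 9 fell (median 0.10), or 57.1% called against 48.6% of all tested genes. Rnd3, which encodes a GTPase without GTP hydrolysis that binds plexins, had 27.4, 27.8, 31.6 and 23.8 CPM under shear stress and 104, 106, 130 and 90.7 CPM in static libraries. It fell by 1.96 ± 0.13 on the log2 scale (adjusted p = 3.7e-05 by edgeR). The related genes of the list went apart, with Rnd1 higher (1.34 ± 0.23, adjusted p = 0.00151 by edgeR) and Rnd2 lower (-0.71 ± 0.16, adjusted p = 0.00576 by edgeR). Arhgef12, whose product binds B-type plexins, was at 123 ± 28.9 CPM under shear stress and 359 ± 64.7 CPM in static libraries and fell by 1.54 ± 0.18. Mical2, of a family of actin-oxidising enzymes that act downstream of plexins, rose to 198 ± 56.1 CPM, against 48.3 ± 21.6 CPM in static libraries (2.04 ± 0.31). Gsk3b, a kinase gene, was called lower (-0.78 ± 0.11). Met, a receptor that associates with B-type plexins, was at 94.3 ± 8.09 CPM under shear stress and 87.2 ± 11.3 CPM in static libraries and was not called (0.11 ± 0.11, adjusted p = 0.431 by edgeR).

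Of 10 tested enzymes that cleave these proteins, 1 rose and 3 fell, or 40% called against 48.6% of all tested genes. Adam10, a metalloprotease that sheds ephrins and Eph receptors, had 70.4, 67.1, 96.7 and 87.8 CPM under shear stress and 33, 35.3, 32.4 and 40.4 CPM in static libraries, with no overlap (1.19 ± 0.14, adjusted p = 0.000204 by edgeR). Adam17 (-0.33), Pcsk7 (-0.50) and Aph1a (-0.21) fell. Adam17 was not called without shear stress replicate 1 (adjusted p = 0.0697 by edgeR), and Aph1a was not called without any one of the 8 libraries (adjusted p between 0.0561 and 0.15 by edgeR). With library totals the median change of all tested genes was 0.22, none of the 3 was called, and Aph1a was at 0.02.

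Of 8 tested genes of other guidance families, 3 rose and 2 fell, or 62.5% called against 48.6% of all tested genes. Unc5b, a netrin receptor gene, had 123, 104, 116 and 130 CPM under shear stress and 21.4, 13.7, 10.8 and 27.1 CPM in static libraries and rose 6.48-fold (2.70 ± 0.26, adjusted p = 0.000109 by edgeR). Neo1, which encodes neogenin, a receptor of netrins and repulsive guidance molecules, was at 42.1 ± 5.87 CPM under shear stress and 105 ± 18.7 CPM in static libraries and fell by 1.32 ± 0.15. The netrin gene Ntn4 rose to 4.09 ± 2.23 CPM, against 0.209 ± 0.27 CPM in static libraries, where it was near the detection limit (4.18 ± 0.80). Slit1, which encodes a ligand of Robo receptors, was at 0.189 ± 0.189 CPM under shear stress and 1.97 ± 0.363 CPM in static libraries (-3.30 ± 0.49), with the shear stress libraries near the detection limit. Ntn4 and Slit1 each passed the filter on low counts only through the group in which they were high.

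**Figure D5:**
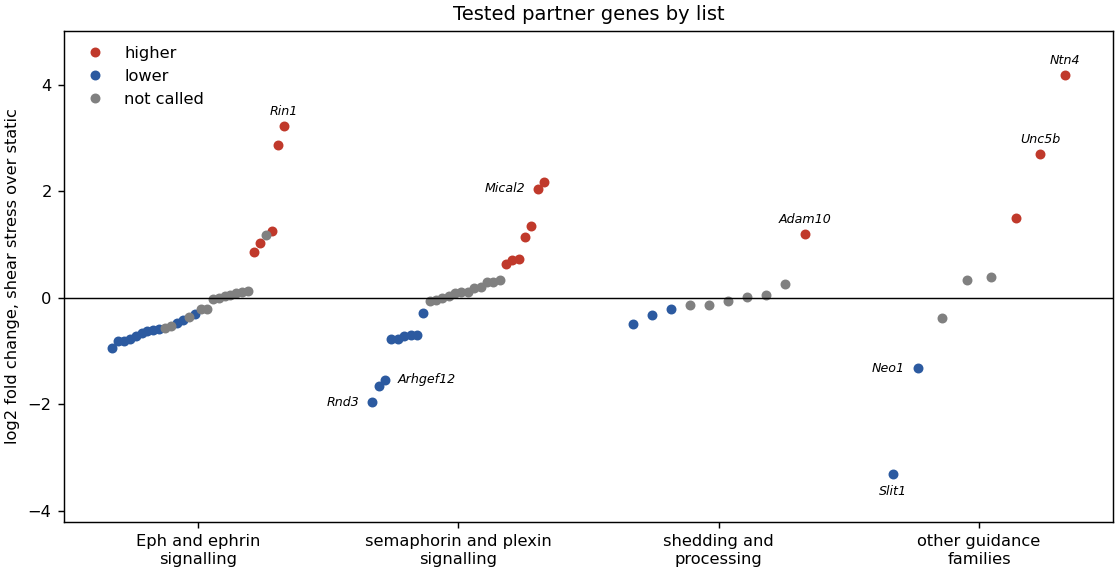
Log2 fold change of shear stress over static for the 76 tested partner genes, by list and in order of change, with called rises in red, called falls in blue and the rest in grey (4 libraries per group). Both directions occur in every list, with Ntn4 (4.18) and Slit1 (-3.30) as the extremes.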

How the data were processed

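RNA was measured in 8 libraries of mouse hepatocytes, 4 under shear stress and 4 static, grouped and numbered by the sample titles. TRIzol extraction and DNBSEQ sequencing are stated in the labels. HISAT, Bowtie2, RSEM and the build GRCm38 (mm10) are named in the submitters' processing notes. The sources used here give no tool versions, annotation or strand setting. Without strand, reads of overlapping genes cannot be told apart. Each deposited file gives an expected count per gene, estimated by the authors, of which between 9.31% and 10.7% were not whole (tolerance 1e-09). The files also hold TPM and FPKM values deposited by the authors. TPM carries no TMM factor and was used only for levels, and FPKM entered no result.

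Expected counts were rounded to whole numbers, filtered with filterByExpr of edgeR 4.0.16 (minimum count 10), scaled by TMM and tested with glmQLFit and glmQLFTest (robust) in R 4.3.3, with Benjamini-Hochberg adjustment over 11747 genes. Each SE was derived from the change and its F statistic (|change| / √F). TMM factors were between 1.06 and 1.15 in shear stress and between 0.876 and 0.966 in static libraries. Same-numbered libraries of the groups correlated at r = 0.679, 0.642, 0.56 and 0.467 after removal of group means (8446 genes), so the numbers pair the libraries. What a number stands for is not stated in the labels. Libraries of a group differed beyond counting noise (chi-square over its degrees of freedom at least 48.1). The test was checked on simulated counts, in which 68, 61 and 71 of 11747 genes changed 1.5-, 2- and 4-fold. Of these, edgeR recovered 23.5%, 60.7% and 93%, and 6.3% of its calls were false. For DESeq2, 21.4% of the calls were false. Far fewer genes changed in the simulation than were called in the data, so these shares may differ here. A member not called may still have changed. Alternatives were other scalings, DESeq2 1.42.0, other filters, the replicate block and leaving out each library.

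Members and lists were chosen with earlier results of these data known, so the partner counts are no independent evidence. All tested members are named, with values in every library for called members of at least 1 CPM and for others where samples differ, and up to 4 called genes of each partner list by smallest p, with Rnd3 and Met in every case. Pecam1, Itgb1, Rnd1, Rnd2, the other markers and the neighbouring genes were singled out as context. Positions are RefSeq genes on GRCm38.p6, matched by gene ID for all 50 members, and strands and overlaps are from GENCODE on GRCm38.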

Additional observations from a re-analysis of the deposited data

Results flagged for a closer look

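In 3 of 84 groups of 4 libraries, 1 library lay far from the other 3, while chance flags about 1 in 20 groups. Sema3f was at 1.62 CPM in shear stress replicate 1 and between 0.417 and 0.566 CPM in the other shear stress libraries. Arhgef12 was at 166 CPM in shear stress replicate 3 and between 105 and 113 CPM in the others. Slit1 was at 0.47 CPM in shear stress replicate 2 and between 0.0579 and 0.115 CPM in the others.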

How the results depend on the processing

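All 7 called members were called in the same direction under every scaling, with DESeq2, with the replicate block, without a low-count filter and without any 1 library. The exception is the filter of 1 CPM in 4 libraries, which left Sema6a untested (4 members higher). The 5 members higher were 8 with upper quartile factors, library totals or DESeq2, each time with Nrp1, Sema4a and Plxna3 added (31.1%, 35.4% and 26% of all tested genes were higher in these settings), 10 with the replicate block, and between 5 and 8 when 1 library was left out. The 2 lower were 6 without a low-count filter, 4 with the replicate block, and between 2 and 3 when 1 library was left out. Of partner genes, the 26 lower were 15 with library totals and between 21 and 26 when 1 library was left out, and the 16 higher were between 13 and 16 when 1 was left out. The median of all genes was -0.01 with TMM and RLE factors, 0.13 with upper quartile factors and 0.22 with library totals, by construction of the factors.

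Changes near 0 took the other sign in some settings, and none of these was called in the other sign. With upper quartile factors, library totals and the replicate block, Epha1 was at 0.13, 0.22 and 0.10 and Ephb4 at 0.12, 0.22 and 0.02. With upper quartile factors and library totals, Efna1 was at 0.11 and 0.20 and Plxnb2 at 0.10 and 0.19, and Aph1a was at 0.02 with library totals. When 1 library was left out, the change of Epha1 ranged between -0.25 and 0.58, Ephb4 between -0.19 and 0.27, Efna1 between -0.23 and 0.12, Sema3f between -0.35 and 0.58, Sema4c between -0.50 and 0.13, Sema6d between -0.32 and 0.59, Nrp2 between -0.07 and 0.36, Plxnb1 between -0.05 and 0.33 and Plxnb2 between -0.12 and 0.08. Apart from the scalings, the cause of these moves was not tested. Members under about 1 CPM are limited by depth.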
